A study of Mus musculus with 15 samples.

Results

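The genes described here encode the light-sensing machinery of rod and cone photoreceptors, and they were chosen by name: 42 gene symbols, all found once among the 40481 genes of the count table. Of these, 11 belong to rods, 9 to cones and 22 to both or to the shared outer segment and its gene control. The labelled tissue is the RPE/choroid complex of mice, which joins the retinal pigment epithelium (RPE) to the choroid, the vascular layer below it, and does not include photoreceptors. The INK-ATTAC mice (8 libraries) carried flox/flox alleles of Abca1/Abcg1 together with LysM-Cre and the INK-ATTAC transgene, and the controls (7 libraries) carried the same alleles and LysM-Cre without the transgene. All 15 libraries are labelled with AP20187 given by the intraperitoneal route, which the submitters describe for INK-ATTAC mice as alternate-day dosing over 3 months. INK-ATTAC is a transgene that puts an FKBP-caspase 8 fusion under the p16Ink4a promoter, so that the dimerizing drug kills cells that use this promoter. LysM-Cre acts in myeloid cells, where it deletes the floxed cholesterol transporter genes in both groups, and the study concerns deposits that form between the photoreceptors and the RPE. The labels give no age, and they do not say if the libraries of a group are from different animals. The p-values therefore reflect variation among libraries that may be technical.

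In darkness, cyclic GMP holds open cation channels in the outer segment of a photoreceptor. Light turns an opsin into an active form that switches on the G protein transducin, transducin releases the phosphodiesterase PDE6 from its inhibitory subunit, cyclic GMP falls and the channels close. A kinase, an arrestin and calcium-sensing proteins then end the response, and guanylate cyclases restore cyclic GMP. Rods and cones use paired versions of most of these proteins. The tips of the outer segments lie against the RPE, which takes up the discs that photoreceptors shed.

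The promoters of 4 genes are shown as examples of both kinds described below: Sag, Crx and Rbp3 followed Gnat1 between libraries, and Abca4 did not. Each is the 250 bases before the RefSeq transcription start (GRCm38.p6), 5′ to 3′ on the gene's strand. Capitals mark TAATCC or its reverse complement GGATTA, the core that the photoreceptor factor CRX is known to bind, and TGCTGA or its reverse complement TCAGCA, a half-site of the element bound by the rod factor NRL.
Sag, chr1:87803430-87803679, + strand: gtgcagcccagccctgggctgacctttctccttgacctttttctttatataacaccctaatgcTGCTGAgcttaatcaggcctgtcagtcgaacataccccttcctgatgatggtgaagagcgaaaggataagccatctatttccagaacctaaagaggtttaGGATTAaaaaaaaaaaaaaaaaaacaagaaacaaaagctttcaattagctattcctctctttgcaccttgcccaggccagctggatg
Crx, chr7:15879956-15880205, - strand: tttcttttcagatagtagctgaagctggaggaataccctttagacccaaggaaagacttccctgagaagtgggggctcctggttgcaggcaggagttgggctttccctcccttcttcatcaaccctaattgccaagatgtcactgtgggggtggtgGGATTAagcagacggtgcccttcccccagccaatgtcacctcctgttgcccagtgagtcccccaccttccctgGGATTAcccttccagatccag
Rbp3, chr14:33953753-33954002, + strand: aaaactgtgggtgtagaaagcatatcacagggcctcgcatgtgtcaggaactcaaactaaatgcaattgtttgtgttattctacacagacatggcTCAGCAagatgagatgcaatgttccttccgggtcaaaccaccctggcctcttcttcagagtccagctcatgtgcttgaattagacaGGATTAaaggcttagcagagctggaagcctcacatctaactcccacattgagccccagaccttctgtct
Abca4, chr3:122044210-122044459, + strand: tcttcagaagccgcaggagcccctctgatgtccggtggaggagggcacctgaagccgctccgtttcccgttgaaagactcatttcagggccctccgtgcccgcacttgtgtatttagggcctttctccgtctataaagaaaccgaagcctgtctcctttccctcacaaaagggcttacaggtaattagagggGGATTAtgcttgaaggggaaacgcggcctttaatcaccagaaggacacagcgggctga
The CRX core stood in 14 of the 32 members with a promoter in the table (43.8%) and in 7.21% of all 27025 genes there, searched on both strands, with several starts of a gene counted together. By class it stood in 4 of 8 rod, 1 of 6 cone and 9 of 18 shared genes. It stood in 9 of the 23 genes that followed Gnat1 (39.1%) and in 5 of the 9 other members (55.6%). The NRL half-site stood in 6 of 32 members (18.8%) and in 18.0% of all genes. Among these promoters, Sag and Rbp3 held 1 match to each motif, Crx held 2 CRX cores and Abca4 held 1. A match is a run of letters, not a bound site.

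Total counts ran from 47954634 to 65065950 in INK-ATTAC libraries and from 39121503 to 59974025 in controls. The sum of RPE markers was high in every library. The 11 listed, among them the retinoid isomerase gene Rpe65, summed to between 71642.5 and 97674 CPM (counts scaled to a library of 1000000) in INK-ATTAC libraries. In controls they summed to between 65111 and 86782 CPM. Rgr and Ttr, at means of 34319 and 25404 CPM, made up most of that sum, while Mitf averaged 140 CPM and Best1 only 3.34 CPM. The 42 photoreceptor genes together summed to between 1540 and 3088 CPM in INK-ATTAC libraries and to between 1638 and 3378 CPM in controls. Lists for other retinal cells ranged from low to high. The 10 bipolar cell markers summed to between 2.61 and 9.17 CPM in INK-ATTAC libraries and to between 3.14 and 8.34 CPM in controls, and 4 of them (Vsx1, Grm6, Scgn and Lhx4) stayed below 1 CPM in every library. The 4 horizontal cell markers measured summed to at most 1.86 CPM in any library. Ganglion cell markers summed to between 30.7 and 50.8 CPM in INK-ATTAC libraries and to between 30.9 and 48.9 CPM in controls, led by Sncg, while the ganglion cell factors Pou4f1 and Pou4f2 stayed below 1 CPM. The 8 amacrine cell markers summed to between 99.95 and 164 CPM in INK-ATTAC libraries and to between 87.8 and 132 CPM in controls. Slc6a9, at a mean of 107 CPM, made up most of that sum, while Gad2, Slc32a1 and C1ql2 stayed below 1 CPM in every library. The 8 Müller glia markers summed to between 2444 and 2796 CPM in INK-ATTAC libraries and to between 2505 and 2784 CPM in controls. Car14, Glul and Dkk3, at means of 1457, 584 and 531 CPM, made up most of that sum. Slc1a3 averaged 29.8 CPM, and Abca8a, Gpr37, Kcnj10 and Aqp4 averaged 6.07, 4.07, 3.15 and 3.04 CPM. The part of these cells in the photoreceptor values was not tested. The sum of the RPE markers was highest in INK-ATTAC 2.

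Rod transcripts were detected in every library, and the level of Gnat1 varied more between libraries of a group than between the group medians. Gnat1, the alpha subunit of rod transducin (chromosome 9, 107674474 to 107679712, GRCm38), was measured at 109, 32.8, 521.9, 241.8, 314.6, 185.9, 141.1 and 85.7 CPM in INK-ATTAC libraries 1 to 8. In controls 1 to 7 it was measured at 189.8, 162.6, 562.7, 251, 249.9, 142.5 and 129.7 CPM. INK-ATTAC 3 and control 3 were the highest of their groups, INK-ATTAC 2 and INK-ATTAC 8 were the lowest of all, and the groups overlapped. The highest library held 17.2 times the Gnat1 of the lowest. In bulk tissue, fewer photoreceptor cells or fragments and less RNA in each cannot be told apart.

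No photoreceptor gene passed the test for a difference between INK-ATTAC and control mice. With edgeR's quasi-likelihood test over 17991 genes, 0 of the 41 members tested had an adjusted p under 0.05 (background 0% of all genes tested), and each had an adjusted p of 1.00. At an unadjusted p under 0.05 there were 0 members, against 4.14% of all genes (745). DESeq2, which called 6 genes in all, and limma-voom, which called 0, also had 0 members at either threshold, and limma-voom with quality weights, which called 2 genes, had 0 members adjusted and 1 unadjusted, Slc24a1. The ranges of the groups overlapped for all 41 members (background 0.0222% not overlapping). The log2 fold change of INK-ATTAC over control, the fold change used throughout, was below 0 for 37 of the 41 (50.2% of all genes) and above 0 for 4 (49.8% of all genes), with a median of -0.21 against -0.00097 over all genes tested. That direction was sensitive to single libraries, and it was lost without control 3. In that fit the log2 fold change was below 0 for 19 of 41, with a median of 0.0083. Without INK-ATTAC 2 it was below 0 for 30 members with a median of -0.09, and without INK-ATTAC 3 for 38 with a median of -0.51.

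**Figure D1:**
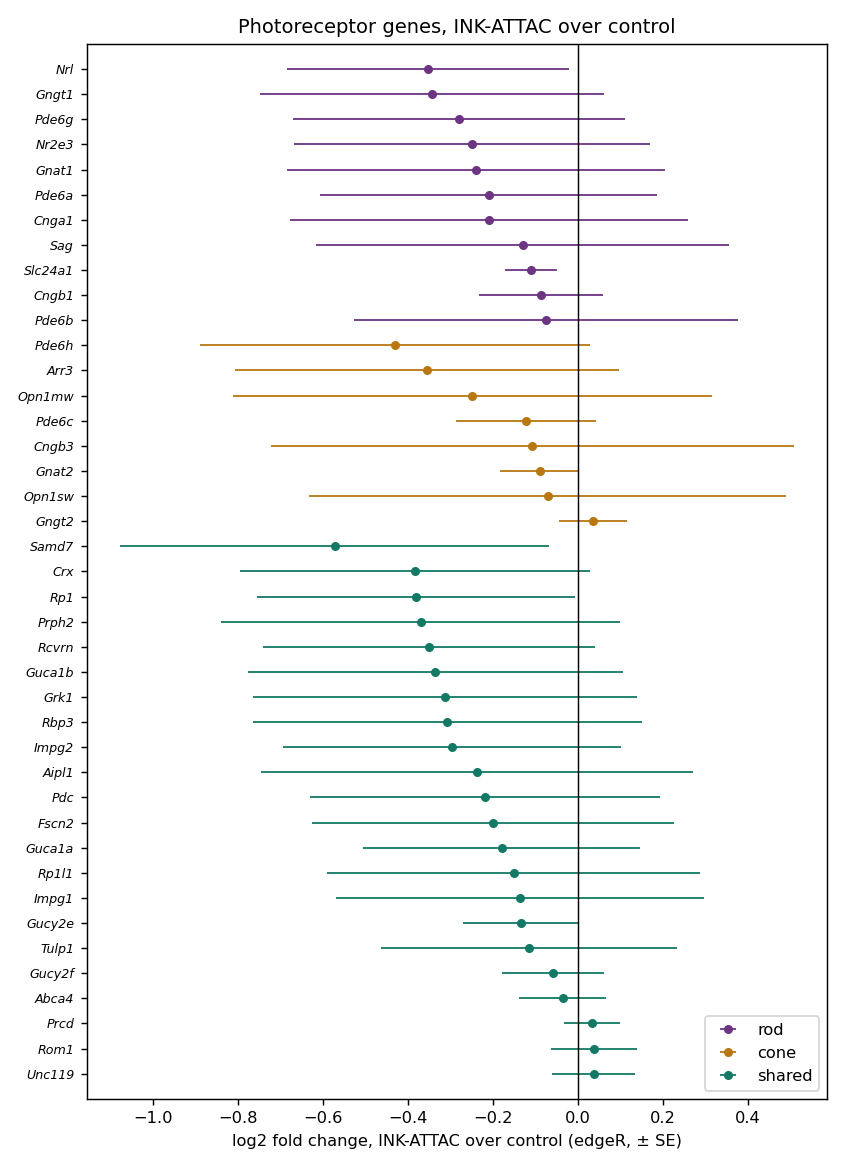
Log2 fold change of INK-ATTAC over control for the 41 tested photoreceptor genes, with bars of 1 SE from the edgeR fit; purple points are rod, ochre cone and green shared genes. Estimates run from -0.57 for Samd7 to 0.04 for Unc119, and genes such as Slc24a1, Prcd and Abca4 have much shorter bars than Gnat1 or Sag.

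By class, all 11 rod genes lay below 0 (median -0.21), as did 7 of the 8 cone genes tested (median -0.12) and 19 of the 22 shared genes (median -0.21), with no adjusted call in any class. Without control 3 the counts below 0 were 4 of 11 rod, 5 of 8 cone and 10 of 22 shared genes. The ninth cone gene, Cnga3, was too scarce to test. In the authors' deposited table, which listed 40 of the 42 members, 35 had a log2 fold change below 0 (51.3% of its genes) and 0 had an adjusted p under 0.05 (0.0208% of its genes). The lowest adjusted p among members in the authors' deposited table was 0.768, for Slc24a1 at a log2 fold change of -0.13.

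Of the transducin genes, Gnat1 had a log2 fold change of -0.24 (SE 0.44). Gngt1, its rod gamma subunit, had 3.49, 23.9 and 51.4 CPM as the lowest, median and highest INK-ATTAC library, against 15.8, 25.3 and 58.7 CPM in controls (log2 fold change -0.34, SE 0.41). The lowest INK-ATTAC library lay below every control, and the highest library of all was a control. Cone transducin behaved differently from Gnat1 between libraries. So did Pde6c among the cone genes, but Pde6h, Arr3 and the cone opsins, described below, varied with Gnat1. Gnat2, the cone alpha subunit (chromosome 3, 108092789 to 108101432), had 26.7, 30.3 and 38.8 CPM in INK-ATTAC libraries and 28.3, 33.9 and 40.3 CPM in controls (log2 fold change -0.09, SE 0.09). Gngt2, the cone gamma subunit, had 46.0, 57.1 and 66.6 CPM in INK-ATTAC libraries and 53.6, 54.8 and 59.1 CPM in controls (log2 fold change 0.04, SE 0.08). Both were nearly level across libraries in which Gnat1 varied 17.2-fold. Gngt2 shares 12.5% of its exonic bases with Abi3 on the opposite strand, and the strand setting of the counts is not given in the sources used here.

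For PDE6, the enzyme that destroys cyclic GMP, the rod genes varied with Gnat1 as well. Pde6g, the inhibitory subunit of rods, had 10.5, 54.4 and 115 CPM as the lowest, median and highest INK-ATTAC library, against 36.9, 50.4 and 145 CPM in controls (log2 fold change -0.28, SE 0.39). Pde6a and Pde6b, the catalytic subunits of rods, averaged 9.61 and 38.1 CPM over all libraries with log2 fold changes of -0.21 and -0.08. Pde6h, the inhibitory subunit of cones, had 0.21, 1.69 and 4.65 CPM in INK-ATTAC libraries and 1.35, 2.37 and 5.19 CPM in controls (log2 fold change -0.43, SE 0.46). The groups of Pde6g and Pde6h overlapped, each with INK-ATTAC 2 lowest and control 3 highest. Pde6c, the catalytic subunit of cones, was among the level genes, between 4.91 and 9.88 CPM in INK-ATTAC libraries and between 6.03 and 11.7 CPM in controls.

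The channel subunits differed in their spread. Cnga1, the alpha subunit of the rod channel, ran from 0.463 to 16.9 CPM in INK-ATTAC libraries and from 4.29 to 16.4 CPM in controls. Its partner Cngb1 kept to between 16.9 and 29.5 CPM in INK-ATTAC libraries and to between 17.7 and 34.6 CPM in controls. The cone channel was near the limit of detection. Cnga3 had 2, 0, 1, 2, 4, 10, 2 and 0 counts in INK-ATTAC libraries 1 to 8, against 6, 0, 17, 2, 11, 4 and 0 in controls 1 to 7. A count of 0 allows up to 3, and a difference in Cnga3 was not detectable at this depth. Cngb3, its beta subunit, had at most 54 counts in any library. Slc24a1, the exchanger that removes calcium from rods (chromosome 9, 64922861 to 64951607), had the highest mean CPM of the 11 rod members. It had 282, 307 and 352 CPM as the lowest, median and highest INK-ATTAC library, against 311, 342 and 378 CPM in controls. Its log2 fold change was -0.11 (SE 0.06), and its unadjusted p of 0.0898 was the lowest of any member (adjusted p = 1.00, edgeR).

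Genes that end the light response and rebuild cyclic GMP were below 0 in fold change in 9 of 9 cases, none past the test, and in 5 of 9 without control 3. Sag, the arrestin that quenches rod opsin (chromosome 1, 87803680 to 87845158), had 13.7, 100 and 335 CPM as the lowest, median and highest INK-ATTAC library, against 58.7, 109 and 326 CPM in controls (log2 fold change -0.13, SE 0.49). Arr3, the cone arrestin, had 0.421, 2.95 and 8.01 CPM in INK-ATTAC libraries and 2.45, 3.82 and 9.83 CPM in controls (log2 fold change -0.36, SE 0.45). Both arrestins were lowest in INK-ATTAC 2 and overlapped between the groups. Grk1, the kinase that marks active opsin, Rcvrn, the calcium sensor that restrains it, and Pdc, which binds free transducin subunits, averaged 6.40, 25.7 and 32.7 CPM. Guca1a and Guca1b, the calcium-sensing activators of guanylate cyclase, averaged 28.5 and 32.4 CPM. The cyclases themselves were level and low. Gucy2e had 3.31, 5.21 and 5.53 CPM in INK-ATTAC libraries and 4.11, 5.11 and 7.17 CPM in controls (log2 fold change -0.13, SE 0.14), and Gucy2f averaged 8.22 CPM over all libraries.

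**Figure D2:**
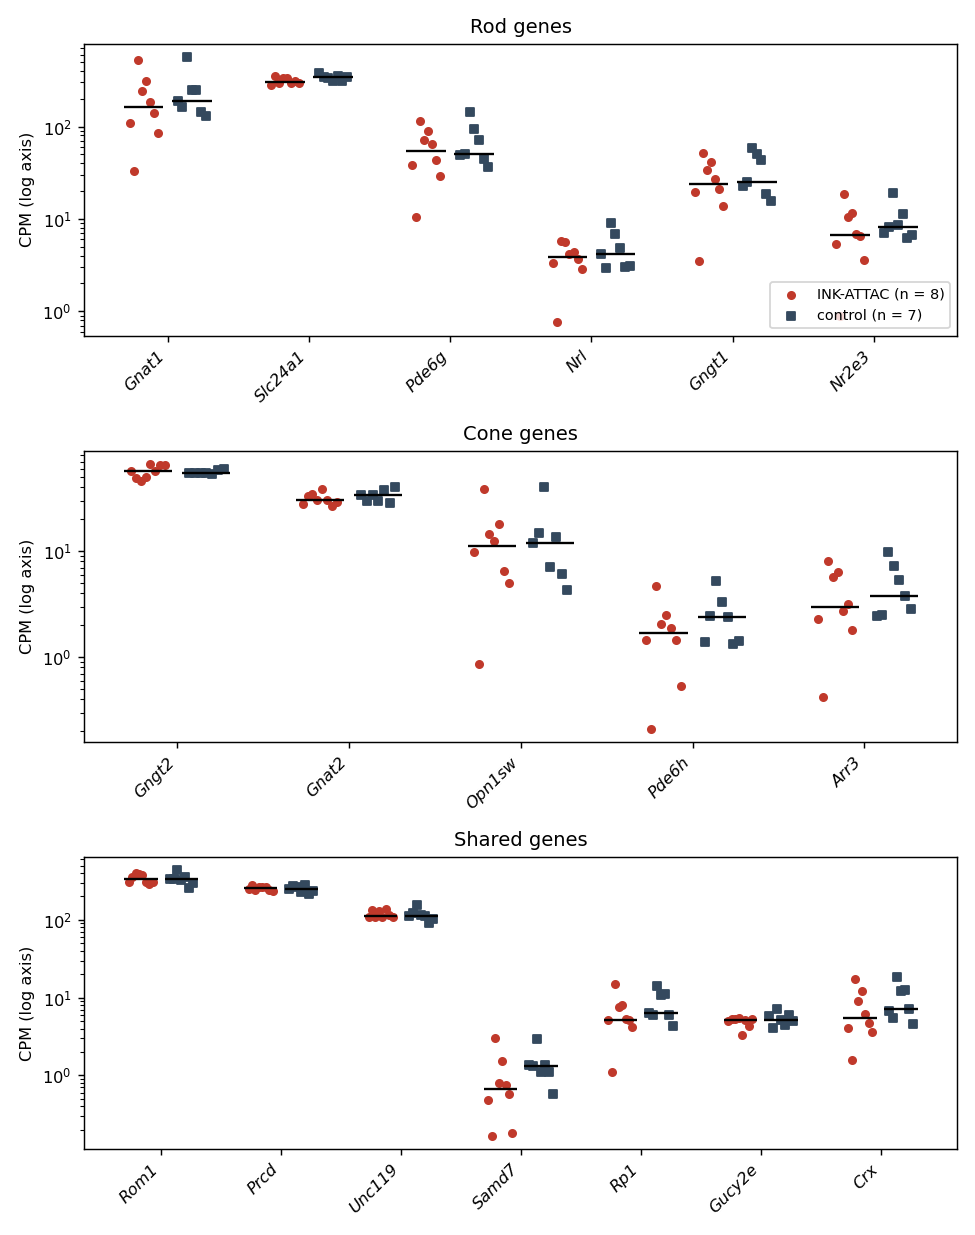
CPM of the rod, cone and shared genes picked by abundance, lowest p or role as transcription factor, on log axes, with INK-ATTAC libraries (red circles, n = 8) left of controls (dark squares, n = 7) and black bars at the medians. Gnat1 spreads from 32.8 to 563 CPM while Slc24a1, Prcd, Rom1 and Gngt2 form tight clusters at similar levels in both groups.

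Rom1, of the structural genes of the outer segment, had the highest mean CPM of the 42 members. This tetraspanin gene of the disc rim (chromosome 19, 8927391 to 8929356) had 286, 333 and 405 CPM as the lowest, median and highest INK-ATTAC library, against 259, 335 and 433 CPM in controls (log2 fold change 0.04, SE 0.10). Prcd, a small disc protein, had 238, 256 and 280 CPM in INK-ATTAC libraries and 215, 250 and 285 CPM in controls (log2 fold change 0.03, SE 0.07). Unc119, a carrier of lipid-tailed proteins such as transducin, had 108, 113 and 138 CPM in INK-ATTAC libraries and 90.6, 113 and 156 CPM in controls (log2 fold change 0.04, SE 0.10). For these 3 genes the INK-ATTAC range lay inside the control range. Abca4, the retinoid flippase of the disc rim (chromosome 3, 122044443 to 122180123), which is known in RPE cells too, kept to between 133 and 205 CPM in INK-ATTAC libraries and to between 135 and 213 CPM in controls.

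Prph2, the tetraspanin partner of Rom1, was far from level, with 3.43, 27.4 and 87.4 CPM as the lowest, median and highest INK-ATTAC library and 22.0, 30.1 and 90.0 CPM in controls. Rp1, a microtubule protein of the outer segment, had 1.12, 5.20 and 15.2 CPM in INK-ATTAC libraries and 4.31, 6.28 and 14.3 CPM in controls (log2 fold change -0.38, SE 0.37). Its relative Rp1l1 averaged 1.63 CPM. Fscn2, an actin bundler, Aipl1, the chaperone of PDE6, and Tulp1, a factor in protein transport to the outer segment, averaged 3.88, 9.52 and 17.1 CPM. In the matrix around the outer segments, the retinoid carrier gene Rbp3 averaged 20.4 CPM, and the proteoglycan genes Impg1 and Impg2 averaged 2.05 and 1.57 CPM. All 9 of these genes were lowest in INK-ATTAC 2.

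The transcription factors of photoreceptors were low and varied with the rod genes. Crx had 1.60, 5.41 and 17.1 CPM as the lowest, median and highest INK-ATTAC library, against 4.55, 7.15 and 18.4 CPM in controls (log2 fold change -0.38, SE 0.41). Nrl, which sets rod fate, had 0.757, 3.92 and 5.79 CPM in INK-ATTAC libraries and 2.93, 4.20 and 9.10 CPM in controls (log2 fold change -0.35, SE 0.33). Nr2e3, which represses cone genes in rods, had 0.884, 6.70 and 18.8 CPM in INK-ATTAC libraries and 6.16, 8.14 and 18.9 CPM in controls (log2 fold change -0.25, SE 0.42). Samd7, a repressor of cone and non-rod genes in rods, had the estimate farthest from 0, a log2 fold change of -0.57 (SE 0.50). It had 0.168, 0.662 and 3.03 CPM in INK-ATTAC libraries and 0.585, 1.31 and 2.97 CPM in controls. In each of these 4 genes the single lowest library was INK-ATTAC 2 and the groups overlapped.

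Most members rose and fell together from library to library. Log2 CPM of 29 of the 40 other tested members correlated with Gnat1 at a Pearson r above 0.8 over the 15 libraries, a level set after the values were seen, and 99 of the other 17990 genes tested did so (72.5% and 0.550%). Within the 8 INK-ATTAC libraries 29 members passed that level, and they were the same 29 genes. Within the 7 controls 30 did, with Rom1 (r = 0.890) and Unc119 (r = 0.867) added and Opn1mw (r = 0.689) left out. Without INK-ATTAC 2 and control 3, the libraries farthest from the median of Gnat1, 26 did, and Opn1sw, Nrl and Rp1l1 did not. These correlations describe libraries that share depth and scaling, and are given without a test. The closest were Rbp3 (r = 0.994), Guca1b (0.992) and Rcvrn (0.988). Gnat1 and the 29 genes that followed it over all libraries, of which 10 in all are rod, 4 cone and 16 shared, were each lowest in INK-ATTAC 2. Of the 30, 21 were highest in control 3, 8 in INK-ATTAC 3 and 1, Opn1mw, in INK-ATTAC 5. Their summed level was 128, 613 and 1774 CPM as the lowest, median and highest INK-ATTAC library and 451, 660 and 1890 CPM in controls.

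The other 11 tested members did not reach that level over all 15 libraries. They were Slc24a1 of the rod genes, Gnat2, Gngt2, Pde6c and Cngb3 of the cone genes, and Abca4, Prcd, Unc119, Rom1, Gucy2e and Gucy2f of the shared genes. Cngb3 was too sparse to place (r = 0.77). For the other 10, the highest library held between 1.32 and 2.39 times the level of the lowest, where the 30 genes above had a median of 17.1 times and a range of 2.05 times for Cngb1 to 46.2 times for Opn1sw. In INK-ATTAC 2, where Gnat1 was lowest, Slc24a1 stood at 352 CPM, Prcd at 280 CPM and Abca4 at 205 CPM, each the highest value of its group. Their r with Gnat1 was -0.02, -0.03 and -0.18. With the RPE gene Rpe65 it was 0.65, 0.66 and 0.30, where Gnat1 had -0.09. Over the 10 level genes r with Rpe65 ran from -0.33 (Gucy2f) to 0.66 (Prcd). The sum of RPE markers was also highest in INK-ATTAC 2, and the part of the RPE in the level genes was not tested. Rom1 and Gucy2f stood closer to Gnat1, both with r = 0.55, and Gucy2f, at 6.52 CPM, was lowest of its group in INK-ATTAC 2. These 11 genes together with Cnga3 summed to 1203, 1287 and 1426 CPM as the lowest, median and highest INK-ATTAC library and to 1135, 1355 and 1488 CPM in controls.

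**Figure D3:**
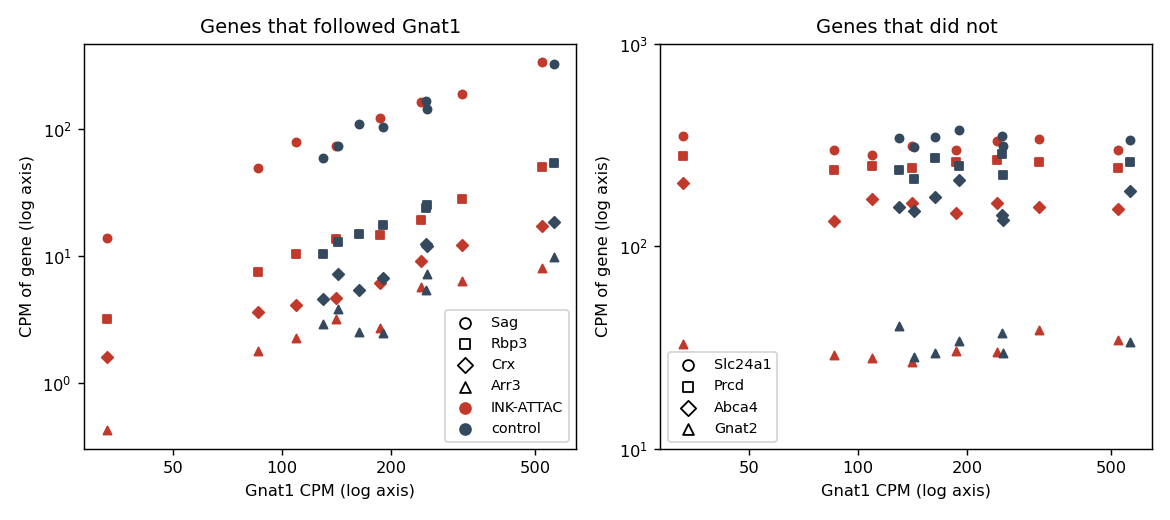
CPM of 8 photoreceptor genes against Gnat1 in the same library, log axes, 1 point per gene and library, with INK-ATTAC in red and control in dark blue. On the left Sag, Rbp3, Crx and Arr3 climb with Gnat1, while on the right Slc24a1, Prcd, Abca4 and Gnat2 stay level from 32.8 to 563 CPM of Gnat1.

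**Figure D4:**
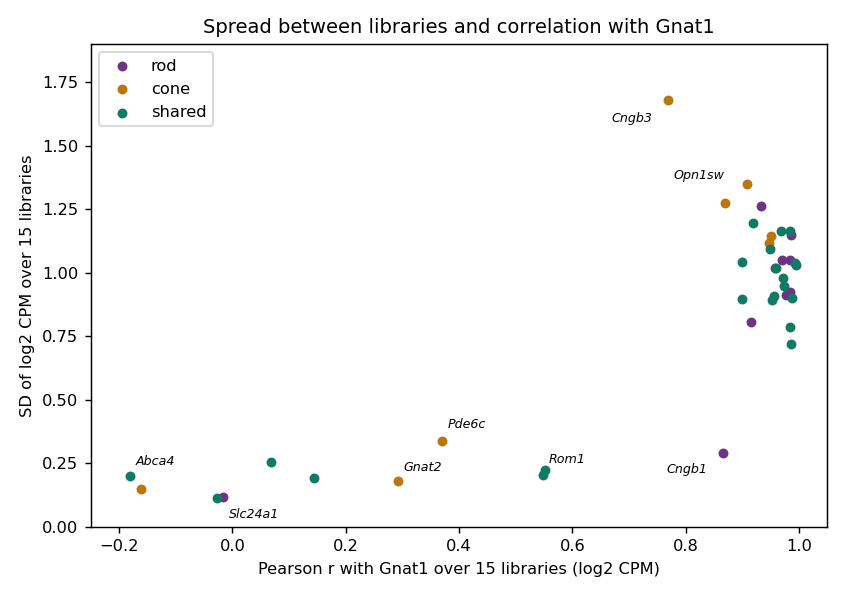
SD of log2 CPM over the 15 libraries against Pearson r with Gnat1 for the other 40 tested genes, coloured by class. A cluster of rod, cone and shared genes lies at r above 0.8, all but Cngb1 with SD of 0.72 or more, and 10 genes lie at an SD between 0.11 and 0.34, with Cngb3 alone at 1.68 and Cngb1 at r = 0.87 with an SD of 0.29.

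Levels were also set per exon length, which allows genes to be compared. By mean CPM per kilobase of exon over all libraries, the order began with Rom1 (223), Prcd (165), Gnat1 (73.1), Slc24a1 (62.5) and Unc119 (48.2), and 4 of these 5 were level genes. The place of Gnat1 holds for the mean only: in INK-ATTAC 2 it stood at 10.8, below Slc24a1 (67.5) and Unc119 (54.5), and in control 3 at 185.8, above Prcd (171). Rom1 stood above 98.6% of the genes tested on this scale, Gnat1 above 95.7% and Crx above 53.7%. Among cone genes Gngt2 led at 30.0, followed by Gnat2 (10.8) and Opn1sw (5.30). The value for Pde6h (0.27) uses an annotated exon length of 7.85 kb.

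The 2 cone opsins did not keep a fixed ratio. Opn1sw encodes the short-wave opsin and Opn1mw the medium-wave opsin, and in mouse retina the short-wave opsin is known to be richest ventrally and the medium-wave opsin dorsally. Opn1sw had 0.863, 11.1 and 38.8 CPM as the lowest, median and highest INK-ATTAC library, against 4.32, 11.8 and 39.9 CPM in controls (log2 fold change -0.07, SE 0.56). Opn1mw had 0.421, 1.60 and 6.63 CPM in INK-ATTAC libraries and 0.877, 2.43 and 5.92 CPM in controls (log2 fold change -0.25, SE 0.56). As a share of the counts of both opsins, Opn1sw took from 65.3% in INK-ATTAC 5 to 93.1% in INK-ATTAC 1, and from 54.4% in control 4 to 93.1% in control 1. The exact 95% intervals, which cover counting error only, were 62.2 to 68.4% and 90.5 to 95.2% for those INK-ATTAC libraries, and 49.95 to 58.7% and 90.8 to 94.96% for those controls. Libraries of like Gnat1 could differ widely: INK-ATTAC 4 (241.8 CPM of Gnat1) held 696 Opn1sw and 127 Opn1mw counts, whereas control 4 (251 CPM) held 281 and 236. The shares of the groups overlapped. Opn1sw shares 15.5% of its exonic bases with Calu on the opposite strand.

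**Figure D5:**
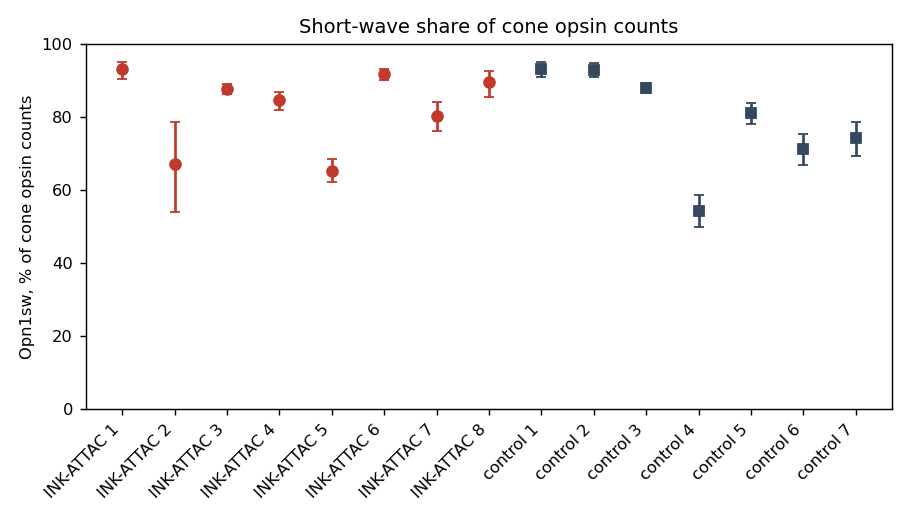
Share of cone opsin counts that belong to Opn1sw in each library, as a percent, with exact 95% intervals for counting error; INK-ATTAC libraries are red circles on the left and controls dark squares on the right. The shares run from 65.3 to 93.1% in INK-ATTAC libraries and from 54.4 to 93.1% in controls, with intervals that do not overlap between many libraries of the same group.

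Cone genes made up a minor part of the summed rod and cone CPM. The cone share of that sum was 8.85, 13.9 and 17.4% as the lowest, median and highest INK-ATTAC library and 8.94, 12.1 and 15.3% in controls. It was lowest in INK-ATTAC 3 and control 3, the libraries with the most Gnat1 in each group. Gnat1 is itself part of the rod sum (562.7 of 1604 CPM in control 3), so this follows in part from how the share is built. The rod sum also holds the level gene Slc24a1, which was 351.7 of 437.9 CPM in INK-ATTAC 2. The share is therefore not a measure of rods against cones. The cone sum itself was 91.0, 114 and 147 CPM in INK-ATTAC libraries and 108, 116 and 157 CPM in controls, and the level genes Gnat2 and Gngt2 contributed most of it.

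Other photoreceptor genes, from a list of 30 with 29 tested, also varied in how they followed Gnat1. None passed the test, 21 lay below 0 (50.2% of all genes) and 8 above (median log2 fold change -0.05), and without control 3 the count below 0 was 13. Over the 15 libraries 14 of the 29 correlated with Gnat1 above 0.8 (0.550% of all genes). Gnb1, a beta subunit that pairs with rod transducin, did so at r = 0.82 within a narrow range of 1922 to 2670 CPM, while Gnb3, its cone counterpart, ran from 3.91 to 14.7 CPM at r = 0.61. Rtbdn (r = 0.983), Rdh12, a retinol dehydrogenase (0.982), and Cplx4, a complexin of the photoreceptor synapse (0.973), were the closest; these and the Gnb genes were chosen after their values were seen. The genes of lowest p were Kcnv2, a potassium channel subunit of photoreceptors (log2 fold change -0.40, SE 0.19), and Thrb, a thyroid hormone receptor (-0.13, SE 0.07), on the lower side. On the higher side they were Rd3, a regulator of guanylate cyclase (0.24, SE 0.13), and Rxrg, a retinoid receptor (0.19, SE 0.12; adjusted p = 1.00 for each of these 4, edgeR). Outside these lists, the protein-coding genes most like the mean of the rod members over the 15 libraries included Fabp12 (r = 0.977), Samd11 (0.949), Ankrd33 (0.948) and Pdzph1 (0.947).

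Tissue other than retina also varied between libraries. Lens markers summed to between 22.0 and 3972 CPM in INK-ATTAC libraries (median 253), highest in INK-ATTAC 3. In controls they summed to between 21.4 and 845 CPM (median 38.0), highest in control 3. INK-ATTAC 3 and control 3 were also the libraries with the most Gnat1 in their groups. Over all 15 libraries the r of the tested lens genes to Gnat1 ran from -0.04 (Crygc) to 0.32 (Cryaa). Of the 13 lens markers 11 were tested, and Lim2 stayed below 1 CPM in every library. Skeletal muscle markers, 10 of 10 tested, summed to between 620 and 3165 CPM in INK-ATTAC libraries (median 2167) and to between 253 and 2185 CPM in controls (median 1034). They were highest in INK-ATTAC 2, with r to Gnat1 of -0.225 (Mylpf) to -0.02 (Myh1). With lens level as a covariate the median log2 fold change of the members was -0.47, and with muscle level -0.21; the part of these tissues in the photoreceptor values was not otherwise tested. The pigment genes listed as melanocyte markers (Dct, Tyrp1, Pmel, Mlana, Tyr and Slc45a2) cannot be assigned here to melanocytes and not to the pigment epithelium. They summed to between 8188 and 11454 CPM in INK-ATTAC libraries and to between 9456 and 10811 CPM in controls. Like Gnat1, they were lowest in INK-ATTAC 2, and highest of the INK-ATTAC libraries in INK-ATTAC 3, with r to Gnat1 of 0.18 (Mlana) to 0.69 (Dct) over the 6 genes; their part in the photoreceptor values was not tested. Choroidal endothelial markers summed to between 314 and 537 CPM in INK-ATTAC libraries and to between 299 and 547 CPM in controls. Macrophage and microglial markers summed to between 1364 and 1777 CPM in INK-ATTAC libraries and to between 1295 and 1876 CPM in controls.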

How the data were processed

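RNA-seq of RPE/choroid complex in 8 INK-ATTAC and 7 control libraries was analysed from the deposited tables. Per the labels' protocols, RNA was purified from TRIzol on NucleoSpin columns and its cDNA amplified by SMARTer. The submitters' processing notes name GRCm38, DRAGEN, bcl2fastq, limma and edgeR. Their versions, the counter, strand setting and annotation are not given in the sources used. The authors deposited raw counts per Ensembl gene (40757 entries, 276 identical repeats collapsed) and a comparison table with log2 CPM, log2 fold change, confidence limits, p-values, and a t statistic, log odds and signed fold given as a score per gene.

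Groups came from the sample titles. TMM scaling was done with edgeR 4.0.16 under R 4.3.3, and genes were filtered with filterByExpr, which left 17991 genes, including 41 of the 42 members. Groups were compared by the two-sided quasi-likelihood F-test of edgeR, no covariate, Benjamini-Hochberg over all genes, threshold 0.05. The SE is the absolute log2 fold change over the square root of F. CPM is counts per 1000000 of the TMM-scaled library size. Alternatives used DESeq2 1.42.0 and limma 3.58.1. The gene test was also run on simulated data in which genes were drawn independently of one another. That run does not measure its power for members that vary together, and no result here rests on it. The lowest chi-square per gene between libraries of 1 group was 29.9, so no library repeated another. Positions, exon lengths and overlaps came from GENCODE M21 (GRCm38) and promoters from RefSeq (GRCm38.p6), where 32 of the 42 members matched. Without molecular identifiers, intervals and floors cover counting error only.

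The members and lists were chosen with earlier results of these data known. Levels are given for the 3 members of each class highest in CPM per kilobase, the 3 of lowest p, Crx, Nrl, Nr2e3 and any member that failed the filter; other genes given in that detail were chosen after their values were seen. Further genes were named by rule: the 5 protein-coding genes most like the rod mean, of which 4 are given and 1 is not reported here, the 2 of lowest p each way in the list of other photoreceptor genes, and leading markers. Predicted genes were left out.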

Additional observations from a re-analysis of the deposited data

Results flagged for a closer look

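Named genes and class sums were tested in each group for a sample far from the others, 42 groups of values in all. Of these 3 stood out. The level used would flag about 1 in 20 groups by chance if the groups were independent. Here the class sums contain named genes and many named genes vary together, so the 3 cannot be set against that share. Nrl in INK-ATTAC 2 was at 0.757 CPM, the lowest of its group, with the next library at 2.85 CPM. The rod genes summed to 1604 CPM in control 3, the highest of its group, with the next at 993 CPM. The cone genes summed to 157.5 CPM in control 3, with the next at 128 CPM. The part of any other tissue in these values was not tested.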

How the results depend on the processing

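Of 31 alternatives, 26 gave calls per gene, and 0 members were called in any of them, an adjusted threshold of 0.10 included. Over all genes the count of calls was 0 in these 26 except in DESeq2 (6) and limma-voom with quality weights (2). Leaving out 1 library moved the median log2 fold change of all members between -0.51 (without INK-ATTAC 3) and 0.0083 (without control 3). The same ranges were -0.49 to 0.0083 for rod, -0.53 to -0.05 for cone and -0.52 to 0.05 for shared genes. With limma-voom the median of all members was -0.39 and with lens level as a covariate -0.47. The replicate block by title number, which had to leave out INK-ATTAC 8, gave a median of -0.24 and 0 called members. Leaving out INK-ATTAC 8 without the block gave a median of -0.11. The correlation of same-numbered libraries ran from -0.10 to 0.27 and only 1 of 7 numbers was its own best match. These correlations cannot show if same-numbered libraries shared a dissection or a batch, and a pairing by number was not otherwise tested. The block put 1 member, Crx, at an unadjusted p under 0.05, and leaving out INK-ATTAC 2 or 5 did so for Slc24a1 and leaving out INK-ATTAC 3 for Samd7. The 18 genes followed one by one changed sign in 17 of 450 fits, all without a call. Opn1sw turned to 0.035 with Xist level as a covariate and 0.011 with the replicate block, and ranged from -0.54 to 0.47 without 1 library. Rom1 turned to -0.024 with skeletal muscle and -0.056 with lens level (-0.016 to 0.11 without 1 library), Unc119 to -0.026 with muscle level (-0.015 to 0.12), and Gngt2 to -0.0042 with the block (-0.011 to 0.074). Gnat1 ranged from -0.60 to 0.12 and Nr2e3 from -0.56 to 0.0083 without 1 library. Depth limits what can be said of Cnga3 and Cngb3.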
